A study of Rattus norvegicus with 18 samples.

Results

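The genes described here are the targets of NRF2, the transcription factor of the antioxidant response, together with the enzymes of glutathione metabolism and of peroxide and superoxide removal, in rat primary hepatocytes exposed to EMD. They were taken from a list of 36 gene symbols, and a gene counted as measured where a probe set of the array was annotated to that 1 symbol alone. Where several probe sets met this rule, the one with the highest mean over all 18 arrays was used. In this way 35 of the 36 were measured, among 14217 genes that the array reads through a probe set of 1 symbol. Prdx1 was dropped, because its probe set was annotated to several symbols. Beyond that mean, the rule uses no measured value.

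The cells were hepatocytes isolated from the liver of Wistar rats, plated, left to attach, and then kept in a medium with insulin, hydrocortisone and gentamicin. EMD, known by a code name, is an agonist of both PPARα and PPARγ, nuclear receptors that switch on genes of lipid metabolism. There were 6 groups of 3 arrays, which were 0.1% DMSO (the vehicle control), 30 µM EMD and 100 µM EMD, each at 24 h and at 72 h. Neither the age of the animals nor whether the EMD dishes also held DMSO is stated. The methods describe cells of each animal as having received every treatment, but the labels tie no replicate number to an animal, so that the p-values below measure the spread between these arrays. Values below are RMA expression on the log2 scale, where a difference of 1 is a doubling, and array values are given in the order of replicates 1, 2 and 3.

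In resting cells KEAP1 binds NRF2 and sends it for degradation; electrophiles and oxidants modify KEAP1, and NRF2 then enters the nucleus and binds antioxidant response elements next to its target genes. Glutathione is the main thiol of the hepatocyte. It is made from glutamate, cysteine and glycine by glutamate-cysteine ligase and glutathione synthetase, is joined to electrophiles by the glutathione transferases, and reduces peroxides through the glutathione peroxidases. Catalase, in the peroxisome, and the peroxiredoxins remove hydrogen peroxide by other routes.

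The core of the antioxidant response element, TGACNNNGC (N is any base), was searched on both strands in RefSeq promoter windows of the GRCr8 build, from 250 bases before to 50 bases after a gene's start. Of the 35 measured genes 29 had a window, and 8 of these (27.6%) held the motif, against 3602 of 27457 genes with a window (13.1%). Hmox1, Gsr, Gstt1, Gstt2, Mgst2 and Prdx6 had no window and were not searched. The 8 genes with the motif were Gclm, Txnrd1, Gstp1, Gpx2, Gsta3, Sod2, Prdx5 and Nfe2l2. Such a match is a description of the letters and not a tested binding site. The stretches around 5 of the matches are printed here, 5′ to 3′ on the strand of the gene and with the motif in capitals, because these genes include textbook NRF2 targets and, as described further on, the members whose levels differed most between arrays of the same group.
Gclm, chr2:213031938-213031996, plus strand: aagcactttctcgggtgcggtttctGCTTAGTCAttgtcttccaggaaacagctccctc
Txnrd1, chr7:22755949-22756007, minus strand: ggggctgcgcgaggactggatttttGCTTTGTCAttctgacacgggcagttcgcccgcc
Gstp1, chr1:210769733-210769791, minus strand: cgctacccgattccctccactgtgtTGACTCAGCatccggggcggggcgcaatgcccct
Gpx2, chr6:101230034-101230071, minus strand: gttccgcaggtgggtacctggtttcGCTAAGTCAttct
Gsta3, chr9:31154947-31154988, plus strand: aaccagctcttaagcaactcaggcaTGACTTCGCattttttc
The motif ran in the direction of the gene in Gstp1 and Gsta3 and against it in Gclm, Txnrd1 and Gpx2. In Gstp1 it overlapped TGANTCA, the motif of the AP-1 factors.

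The 18 arrays had medians between 5.04 and 5.11, and arrays of a group correlated with each other at 0.9875 to 0.9958. All 35 genes had a mean above 5.08, the median of all values. The hepatocyte markers were high (Alb, albumin, 14.71 on average). The summed level of 6 of them lay at 16.20 to 16.33 with DMSO at 72 h against 15.77 to 15.94 with EMD. At either dose at 72 h 4 of the 6 were called lower (Apoa1, Ttr, Cps1 and Serpina1). The others did not move: Alb averaged 14.75 with DMSO and 14.76 at either dose, and Hnf4a 10.3 with DMSO and 10.32 and 10.31 with 30 and 100 µM. Among all probe sets 9.22% were called lower at 30 µM and 9.68% at 100 µM at 72 h. Of 9 macrophage markers 5 were under the median of all values, among them Adgre1, Csf1r and Cd163, and of 6 endothelial markers 6 were. The summed macrophage level was lower with EMD at both times, at 10.48 to 10.80 against 11.23 to 11.68 with DMSO at 24 h and at 9.73 to 10.13 against 10.49 to 11.25 at 72 h, mainly through Lyz2, which averaged 10.71 with DMSO and 9.49 and 9.53 with 30 and 100 µM at 24 h, and 9.90 against 8.07 and 8.22 at 72 h. With EMD 1 of the 9 markers was called lower at either dose at 24 h, where 2.01% (30 µM) and 2.95% (100 µM) of all probe sets were. In such bulk samples fewer cells of a type and less RNA of a marker gene per cell cannot be told apart. The part of these shifts in the results was not tested.

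EMD moved single genes of the list both ways. A gene was called where the limma adjusted p, over all 31042 probe sets, was under 0.05. Of the 35 genes 20 were called in at least 1 of the 4 comparisons with DMSO, of which 10 were only higher, 10 only lower and 0 both, and 15 were never called. The share of other probe sets called at least once was not computed, so these counts do not set the list apart. Cat was called higher and Gstm1 lower in all 4. The comparisons at 1 time share their DMSO arrays.

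At 24 h, 30 µM EMD gave 6 calls (3 higher, 3 lower), or 17.1% of the genes, where 5.36% of all probe sets were called (3.35% higher, 2.01% lower) and 12.4% of the 9276 probe sets at least as bright as the dimmest member. At 100 µM there were 7 calls (2 higher, 5 lower), or 20% of the genes, against 6.01% of all probe sets (3.06% higher, 2.95% lower) and 14.3% of the bright ones. At 72 h, 30 µM EMD gave 15 calls (8 higher, 7 lower), or 42.9%, against 17.1% of all (7.88% higher, 9.22% lower) and 33.2% of the bright ones. At 72 h 100 µM gave 13 (6 higher, 7 lower), or 37.1%, against 17.1% (7.42% higher, 9.68% lower) and 33%. Most of the excess over all probe sets was thus shared by other bright probe sets, and the remainder was not tested. Their median change was -0.11, -0.09, 0.01 and -0.05 in these 4 comparisons, where the median over all probe sets was -0.03, -0.01, 0.01 and 0.02.

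**Figure D1:**
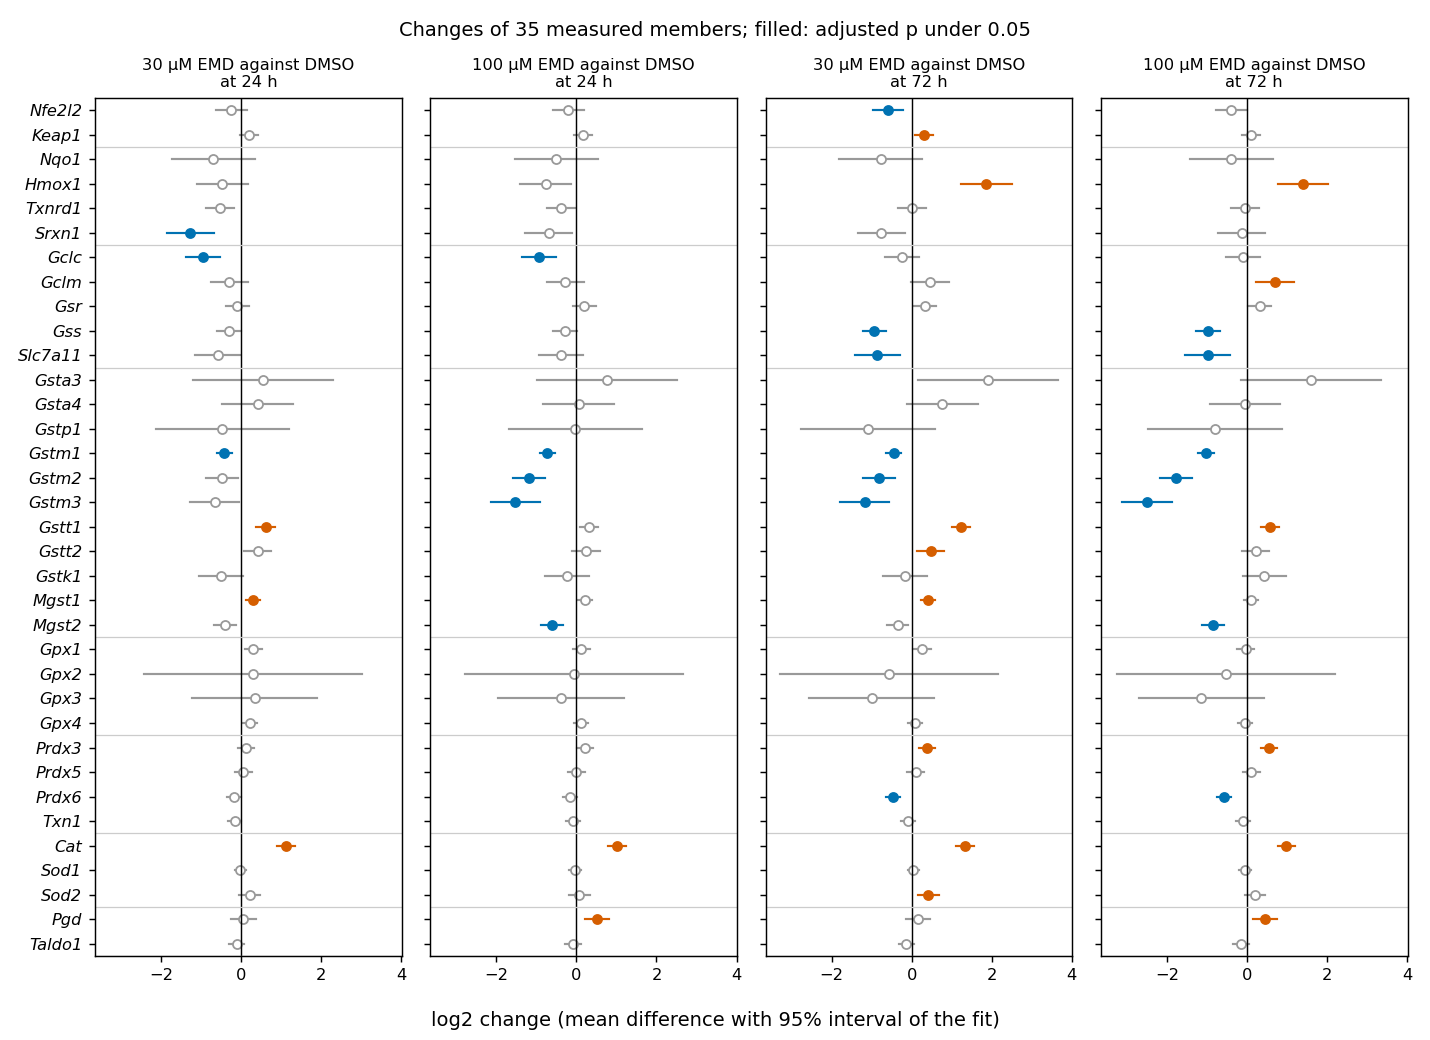
Log2 change (x axis) of each of the 35 measured genes (y axis, by role) against DMSO of the same time, for 30 and 100 µM EMD at 24 and 72 h. Points are mean differences with the 95% interval of the fit, filled where the adjusted p was under 0.05; Cat was filled to the right and Gstm1 to the left of 0 in all 4 panels, and the widest intervals were those of Gpx2.

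The sensor and its factor changed little, and each was called in 1 comparison with DMSO. Nfe2l2, which encodes NRF2, read 10.79, 10.23 and 10.07 with DMSO at 72 h against 10.04, 9.63 and 9.63 with 30 µM EMD, a fall of 0.60 (log2 change -0.60 ± 0.18, standard error, adjusted p = 0.0306). The arrays of these groups did not overlap. At 100 µM the change was -0.39 (adjusted p = 0.16). Keap1, the NRF2 inhibitor, read 7.64, 7.81 and 8.0 with DMSO at 72 h and 8.04, 8.18 and 8.18 with 30 µM, a rise of 0.32 ± 0.11 (adjusted p = 0.0496). A dimmer probe set of Keap1 gave a rise of 0.41 there (adjusted p = 0.0241). At 24 h the changes at 30 µM were -0.25 for Nfe2l2 and 0.19 for Keap1 and were not called, and the difference between the times was not called either (interaction adjusted p = 0.619 and 0.781). The call of Nfe2l2 at 72 h was lost without DMSO replicate 1 or 30 µM replicate 2 or 3 (adjusted p = 0.172, 0.116 and 0.116) and with cyclic loess across the arrays (adjusted p = 0.0677). That of Keap1 at 72 h was lost without DMSO replicate 1 or 2 or 30 µM replicate 2 or 3 (adjusted p = 0.222, 0.114, 0.147 and 0.144).

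Among 7 genes that are textbook NRF2 targets (Nqo1, Hmox1, Srxn1, Txnrd1, Gclc, Gclm and Slc7a11), the estimate was negative for 7 of 7 at 24 h at either dose, with a median change of -0.58 at 30 µM and -0.51 at 100 µM. Only Gclc, at both doses, and Srxn1, at 30 µM, passed the test there. DMSO replicate 3, an array that both doses share as control, was the highest of the DMSO arrays in 7 of the 7 genes, and without it the medians were -0.29 and -0.21. The median at 100 µM was -0.82 without DMSO replicate 1 and -0.30 without 100 µM replicate 1. At 72 h the medians were -0.24 and -0.09. The 7 are only a part of the list and of its pathways. Of all 35 genes 15 had a positive estimate at 30 µM and 24 h, and 13 at 100 µM. Of 62 other genes of the same pathways, described further on, 9 were called higher and 4 lower at 30 µM and 24 h. At 100 µM these were 10 and 4. The share of negative estimates over all probe sets was not computed.

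Hmox1 encodes heme oxygenase 1, which breaks heme down to biliverdin, iron and carbon monoxide. At 24 h it read 11.68, 11.48 and 12.37 with DMSO, 11.94, 11.40 and 10.80 with 30 µM EMD and 11.56, 11.05 and 10.60 with 100 µM. These groups overlapped, and the changes of -0.47 ± 0.30 and -0.77 ± 0.30 did not pass the test (adjusted p = 0.496 and 0.174). At 72 h it read 10.49, 9.87 and 10.22 with DMSO, 12.15, 12.04 and 11.98 with 30 µM and 11.29, 12.09 and 11.40 with 100 µM. All EMD arrays now lay above all DMSO arrays. Hmox1 rose by 1.87 ± 0.30 at 30 µM (3.65-fold, adjusted p = 0.000284) and by 1.40 ± 0.30 at 100 µM (2.64-fold, adjusted p = 0.0033). The DMSO level itself fell by 1.65 between 24 and 72 h (log2 change -1.65 ± 0.30, adjusted p = 0.00107), so that 4 of the 6 EMD arrays of 72 h lay within the range of the DMSO arrays of 24 h and the others just below it. Macrophages also express Hmox1. Of their 9 markers 1 was called lower with 30 µM and 2 with 100 µM at 72 h and 0 higher. Among all probe sets 9.22% and 9.68% were called lower there. The part of macrophages in the change was not tested.

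Srxn1 encodes sulfiredoxin, which repairs over-oxidised peroxiredoxins. It read 11.04, 10.95 and 11.92 with DMSO at 24 h and 10.36, 10.06 and 9.69 with 30 µM EMD. The groups were apart, and the gene fell by 1.27 (log2 change -1.27 ± 0.28, 2.41-fold, adjusted p = 0.0097). The call was lost without DMSO replicate 3 (adjusted p = 0.0581) or without 30 µM replicate 3 (adjusted p = 0.0616). At 100 µM the arrays read 10.69, 10.77 and 10.39 (change -0.69, adjusted p = 0.194). A further probe set of the gene gave -1.05 at 30 µM (adjusted p = 0.0642), and another, at a mean of only 3.55, gave -0.03.

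Nqo1, a quinone reductase, and Txnrd1, thioredoxin reductase 1, were called in no comparison. Nqo1 changed by -0.70, -0.51, -0.77 and -0.39 in the 4 comparisons, each with a standard error of 0.49, and its arrays ranged from 6.90 to 9.55. Its 95% interval at 100 µM and 72 h ran from -1.43 to 0.64, which leaves room for a change of more than 2-fold downward. Txnrd1 was steadier, at 9.65, 9.86 and 10.46 with DMSO at 24 h and 9.29, 9.60 and 9.49 with 30 µM (change -0.53 ± 0.17, adjusted p = 0.0847). At 72 h its changes were 0.01 and -0.05. With a replicate block (a term for replicate number) in the limma fit, Txnrd1 passed at 30 µM and 24 h (adjusted p = 0.0436). Nqo1 then passed at 30 µM at 24 h and 72 h (adjusted p = 0.0358 and 0.00807).

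**Figure D2:**
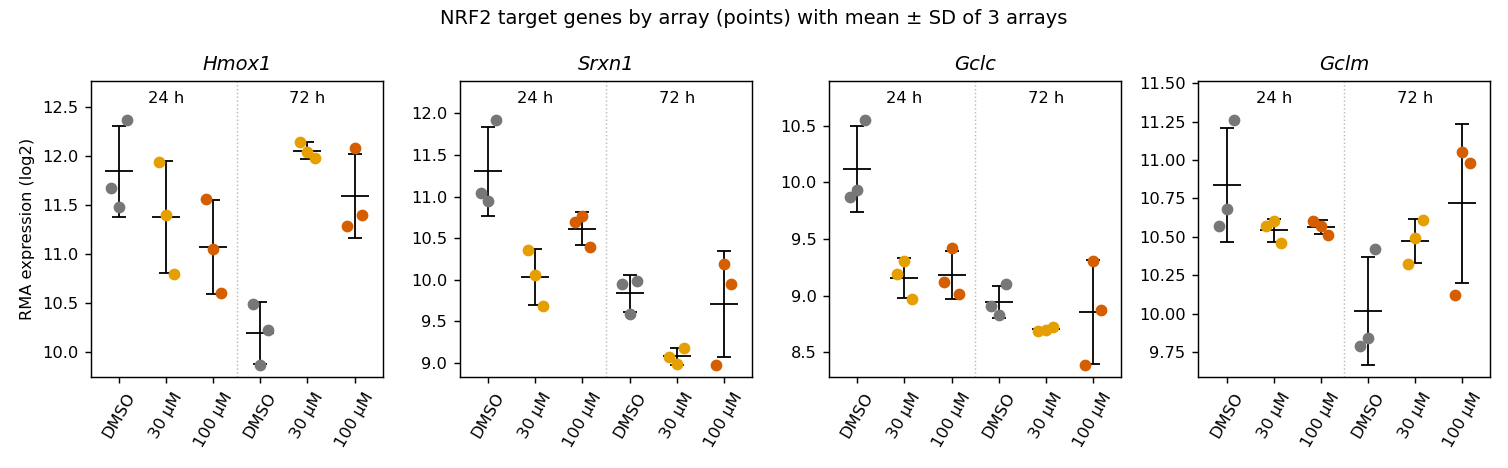
RMA expression (log2, y axis) of Hmox1, Srxn1, Gclc and Gclm by dose and time, with points for arrays and bars for the mean ± SD of 3 arrays; each panel has its own y axis, which does not start at 0. With DMSO all 4 genes were lower at 72 h than at 24 h, and Hmox1 with EMD at 72 h lay between 11.29 and 12.15, above DMSO at 9.87 to 10.49.

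The genes of glutathione synthesis differed by step and by time. Gclc, the catalytic subunit of glutamate-cysteine ligase, which makes the first and rate-limiting step, read 9.87, 9.93 and 10.55 with DMSO at 24 h. With 30 µM EMD it read 9.19, 9.31 and 8.97, and with 100 µM 9.12, 9.42 and 9.01. EMD arrays at either dose lay below the DMSO arrays, and Gclc fell by 0.96 (log2 change -0.96 ± 0.20, adjusted p = 0.00676) and by 0.94 (-0.94 ± 0.20, adjusted p = 0.00755). A further probe set of Gclc gave -0.89 (adjusted p = 0.032) and -0.80 (adjusted p = 0.0508). At 72 h no change was called, at 8.91, 8.83 and 9.10 with DMSO, 8.69, 8.70 and 8.72 with 30 µM and 8.39, 9.31 and 8.87 with 100 µM.

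Gclm, the modifier subunit of the same ligase and the holder of the first stretch printed above, moved the other way at 72 h. It read 9.79, 9.84 and 10.42 with DMSO and 10.12, 11.05 and 10.98 with 100 µM EMD, a rise of 0.70 ± 0.22 (adjusted p = 0.0376) with overlapping arrays. The call was lost without DMSO replicate 1 or 2 or 100 µM replicate 2 or 3 (adjusted p = 0.14, 0.135, 0.171 and 0.165). At 30 µM the change was 0.45 (adjusted p = 0.193).

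Gss, glutathione synthetase, which adds the glycine, fell at 72 h at both doses. It read 9.92, 9.71 and 9.23 with DMSO, 8.85, 8.59 and 8.61 with 30 µM and 8.86, 8.50 and 8.57 with 100 µM, without overlap. The changes were -0.93 ± 0.14 (1.91-fold, adjusted p = 0.000139) and -0.97 ± 0.14 (1.96-fold, adjusted p = 0.000101). At 24 h they were -0.30 and -0.29 and were not called.

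Slc7a11, the transport subunit of the cystine-glutamate exchanger that brings in cystine for glutathione, was lower at 72 h as well. With DMSO it read 7.04, 7.33 and 8.22, with 30 µM 6.24, 6.58 and 7.18 and with 100 µM 6.23, 6.83 and 6.59. It fell by 0.86 (log2 change -0.86 ± 0.27, adjusted p = 0.0328) and by 0.98 (-0.98 ± 0.27, adjusted p = 0.016). DMSO replicate 3 was the high array, and without it the changes were -0.52 and -0.63 and neither was called (adjusted p = 0.167 and 0.0813). The call at 30 µM was also lost without 30 µM replicate 1 or 2 (adjusted p = 0.148 and 0.101), and that at 100 µM without 100 µM replicate 1 (adjusted p = 0.0599). Gsr, glutathione reductase, which turns oxidised glutathione back with NADPH, was called in no comparison with DMSO (changes -0.09, 0.20, 0.33 and 0.32).

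The glutathione transferases held the largest fall of the list, in its mu-class members, and rises in theta-class members. Microsomal Mgst1 rose at 30 µM and Mgst2 fell at 100 µM. Of the 11 transferase genes 2 were called higher and 1 lower at 30 µM and 24 h, 0 and 4 at 100 µM and 24 h, 3 and 3 at 30 µM and 72 h, and 1 and 4 at 100 µM and 72 h. These were 27.3%, 36.4%, 54.5% and 45.5% of the 11. Among all probe sets 5.36%, 6.01%, 17.1% and 17.1% were called, and among the bright ones 12.4%, 14.3%, 33.2% and 33%.

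Gstm1 is a mu-class enzyme and was among the brightest genes of the list. At 24 h it read 13.29, 13.41 and 13.30 with DMSO, 12.91, 12.83 and 13.00 with 30 µM EMD and 12.65, 12.50 and 12.65 with 100 µM. At 72 h it read 13.68, 13.82 and 13.80, then 13.27, 13.44 and 13.24, then 12.88, 12.60 and 12.74. At each time the 3 groups were apart and stood in the order of dose. The changes were -0.42, -0.73, -0.45 and -1.03, each ± 0.09 (adjusted p = 0.00779, 4.67e-05, 0.00166 and 5.96e-07). The call at 30 µM and 24 h was lost without 30 µM replicate 2 (adjusted p = 0.0521).

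Gstm2 showed the same order. With DMSO at 72 h it read 11.75, 12.38 and 12.42, with 30 µM 11.08, 11.47 and 11.52 and with 100 µM 10.16, 10.39 and 10.67. The falls at 72 h were of -0.83 ± 0.19 and -1.78 ± 0.19 (1.78-fold and 3.43-fold, adjusted p = 0.00494 and 4.92e-06). At 24 h the change was -0.47 at 30 µM (adjusted p = 0.198) and -1.18 at 100 µM (adjusted p = 0.000664).

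Gstm3, a dimmer mu-class gene, fell the most of all 35 genes. With DMSO it read 8.50, 9.15 and 9.37 at 72 h, with 30 µM EMD 7.46, 7.88 and 8.17 and with 100 µM 6.38, 6.17 and 6.97. The changes were -1.17 ± 0.29 (adjusted p = 0.00907) and -2.50 ± 0.29 (5.66-fold, adjusted p = 1.25e-05). At 24 h they were -0.66 (adjusted p = 0.262) and -1.53 (adjusted p = 0.00301). Mu-class genes are close copies of each other, so that their probe sets may partly read the same transcripts; probe sequences were not used here and this was not tested.

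Theta-class Gstt1, which acts on small halogenated compounds, rose. At 24 h it read 8.54, 8.61 and 8.40 with DMSO and 8.89, 9.35 and 9.15 with 30 µM EMD, a rise of 0.61 ± 0.11 (adjusted p = 0.00173). At 72 h it read 8.95, 9.06 and 9.08 with DMSO, 10.21, 10.27 and 10.31 with 30 µM and 9.55, 9.58 and 9.66 with 100 µM. The 3 groups at 72 h were well apart, with the lower dose on top. Gstt1 rose there by 1.24 ± 0.11 (2.36-fold, adjusted p = 4.55e-07) and by 0.57 ± 0.11 (1.48-fold, adjusted p = 0.00122). At 100 µM and 24 h the change of 0.31 was not called (adjusted p = 0.114).

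Gstt2, the other theta-class member, passed the test only at 30 µM and 72 h, at 9.02, 9.26 and 9.15 against 8.25, 8.86 and 8.88 with DMSO (rise 0.48 ± 0.16, adjusted p = 0.0497). That call was lost without DMSO replicate 1 or any 1 of the 30 µM arrays (adjusted p = 0.263 without DMSO replicate 1, and 0.0582, 0.166 and 0.115 without 30 µM replicates 1, 2 and 3). A dimmer probe set of the gene gave 0.53 at 100 µM and 72 h (adjusted p = 0.0029), where the one used gave 0.22 (adjusted p = 0.416).

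The microsomal transferases sit in membranes. Mgst1, the brightest gene of the list with a mean of 13.47, read 13.24, 13.46 and 13.38 with DMSO at 72 h and 13.76, 13.78 and 13.78 with 30 µM EMD, a rise of 0.41 ± 0.08 (adjusted p = 0.00208). At 24 h and 30 µM its rise of 0.30 (adjusted p = 0.0438) was lost when any array but 30 µM replicate 1 was left out (adjusted p = 0.121, 0.0539 and 0.133 without DMSO replicates 1, 2 and 3, and 0.186 and 0.143 without 30 µM replicates 2 and 3). Mgst2 went down. It read 11.10, 10.93 and 11.17 with DMSO at 72 h and 10.55, 9.94 and 10.14 with 100 µM, a fall of 0.86 (log2 change -0.86 ± 0.13, adjusted p = 0.000159). At 100 µM and 24 h Mgst2 fell by 0.61 (log2 change -0.61 ± 0.13, adjusted p = 0.00674), and at 30 µM its changes of -0.41 and -0.35 missed the threshold (adjusted p = 0.0836 and 0.0705).

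Alpha-class Gsta3 and Gsta4, pi-class Gstp1 and kappa-class Gstk1 were called in no comparison with DMSO. Gsta3 had large estimates at 72 h, of 1.91 ± 0.83 and 1.59 ± 0.83 (adjusted p = 0.136 and 0.225), with arrays at 5.81, 6.63 and 8.24 with DMSO, 7.91, 9.0 and 9.52 with 30 µM and 7.28, 8.73 and 9.45 with 100 µM. With a replicate block (a term for replicate number) in the limma fit, both estimates passed (adjusted p = 1.34e-05 and 9.69e-05). The main fit has no such block, because the labels tie no replicate number to an animal. Gsta4 changed by 0.77 at 30 µM and 72 h (adjusted p = 0.254) and Gstp1 by -1.10 there (adjusted p = 0.417). These 2 changes also passed with the block (adjusted p = 0.00305 and 0.0122). Gstk1 changed by between -0.50 and 0.43.

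**Figure D3:**
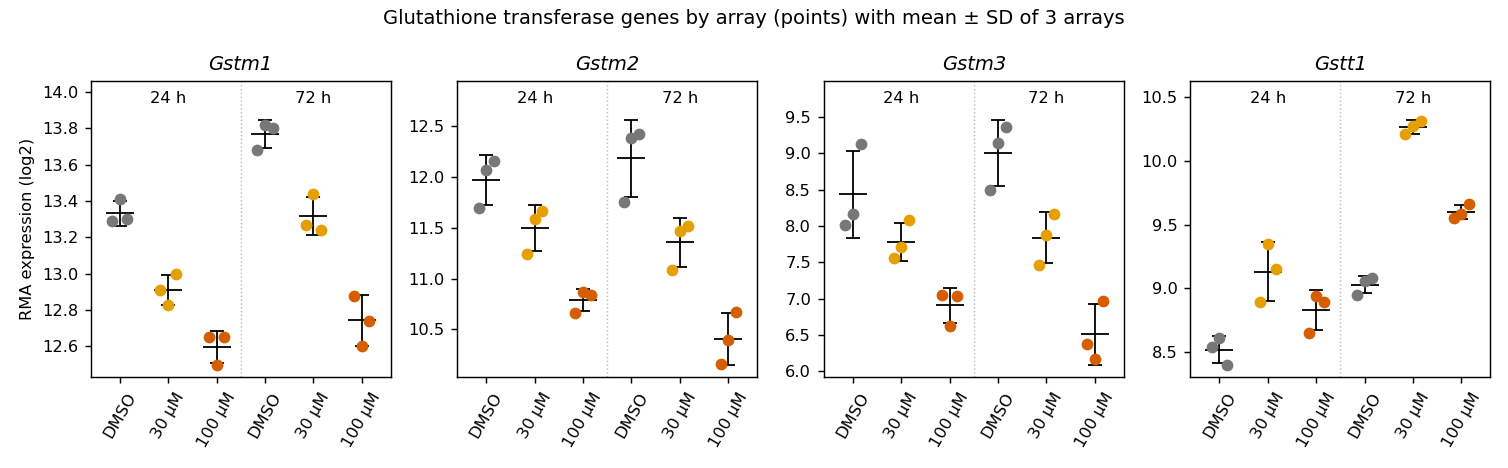
RMA expression (log2, y axis) of Gstm1, Gstm2, Gstm3 and Gstt1 by dose and time, with points for arrays and bars for the mean ± SD of 3 arrays; each panel has its own y axis, which does not start at 0. Gstm1, Gstm2 and Gstm3 stepped down from DMSO to 30 µM to 100 µM in their means at both times, and Gstt1 at 72 h was highest at 30 µM, at 10.21 to 10.31.

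None of the 4 glutathione peroxidase genes was called in any comparison with DMSO. Gpx1, the main peroxidase of the cytosol, was bright and steady, at 13.06, 12.87 and 12.80 with DMSO at 24 h and 13.28, 13.10 and 13.27 with 30 µM EMD (change 0.31 ± 0.11, adjusted p = 0.117). Gpx4, which reduces lipid peroxides in membranes, changed by 0.23, 0.12, 0.09 and -0.05. At 72 h and 100 µM the 95% interval of Gpx4 was -0.22 to 0.13. Gpx3, the secreted enzyme, and Gpx2 had wide standard errors of 0.74 and 1.29, and at 100 µM and 72 h their 95% intervals ran from -2.71 to 0.43 and from -3.26 to 2.19. With a replicate block in the fit Gpx3 passed there (change -1.14, adjusted p = 0.0318), and Gpx1 passed at 30 µM and 24 h (adjusted p = 0.0487).

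Of the peroxiredoxins, which reduce hydrogen peroxide with thioredoxin or glutathione, the mitochondrial Prdx3 rose and Prdx6 fell, both at 72 h at both doses. Prdx3 read 10.40, 10.57 and 10.57 with DMSO, 10.78, 11.02 and 10.91 with 30 µM and 10.89, 11.20 and 11.11 with 100 µM. It rose by 0.39 ± 0.09 (adjusted p = 0.00721) and by 0.56 ± 0.09 (adjusted p = 0.000452). Prdx6, the member that also has phospholipase activity and draws on glutathione, read 11.29, 11.30 and 11.39 with DMSO, 10.95, 10.87 and 10.73 with 30 µM and 10.85, 10.81 and 10.62 with 100 µM. It fell by 0.48 (log2 change -0.48 ± 0.08, adjusted p = 0.000544) and by 0.57 (-0.57 ± 0.08, adjusted p = 0.000124). In both genes all EMD arrays lay on 1 side of the DMSO arrays. Prdx5 and Txn1, the cytosolic thioredoxin, were called in no comparison; their changes against DMSO ran from -0.16 to 0.11.

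Catalase gave the most even response of the list. Cat read 11.21, 11.05 and 10.94 with DMSO at 24 h, 12.15, 12.19 and 12.24 with 30 µM EMD and 12.12, 12.09 and 12.00 with 100 µM. At 72 h it read 11.05, 11.49 and 11.45, then 12.59, 12.72 and 12.66, then 12.40, 12.25 and 12.30. Each EMD array was above each DMSO array of either time. The rises were of 1.13, 1.01, 1.33 and 0.98, each ± 0.11, or 2.19-, 2.01-, 2.51- and 1.98-fold (adjusted p = 1.77e-06, 7.51e-06, 1.52e-07 and 5.43e-06). For scale, Ehhadh, a peroxisomal enzyme of fatty acid oxidation and a textbook PPARα target, rose by 7.34 and 7.15 at 24 h and by 5.89 and 5.30 at 72 h on the same arrays (adjusted p from 6.55e-12 to 6.5e-10).

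Of the superoxide dismutases, which turn superoxide into hydrogen peroxide, the mitochondrial Sod2 was called once, at 10.92, 11.07 and 10.97 with 30 µM against 10.61, 10.74 and 10.38 with DMSO at 72 h (rise 0.41 ± 0.12, adjusted p = 0.0272). The call was lost without DMSO replicate 1 or 3 or 30 µM replicate 2 or 3 (adjusted p = 0.0558, 0.124, 0.103 and 0.0649). The cytosolic Sod1 was called in none of the 4 comparisons. Its changes lay between -0.05 and 0.04, each with a standard error of 0.07, and at 100 µM and 72 h its 95% interval was -0.19 to 0.09.

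**Figure D4:**
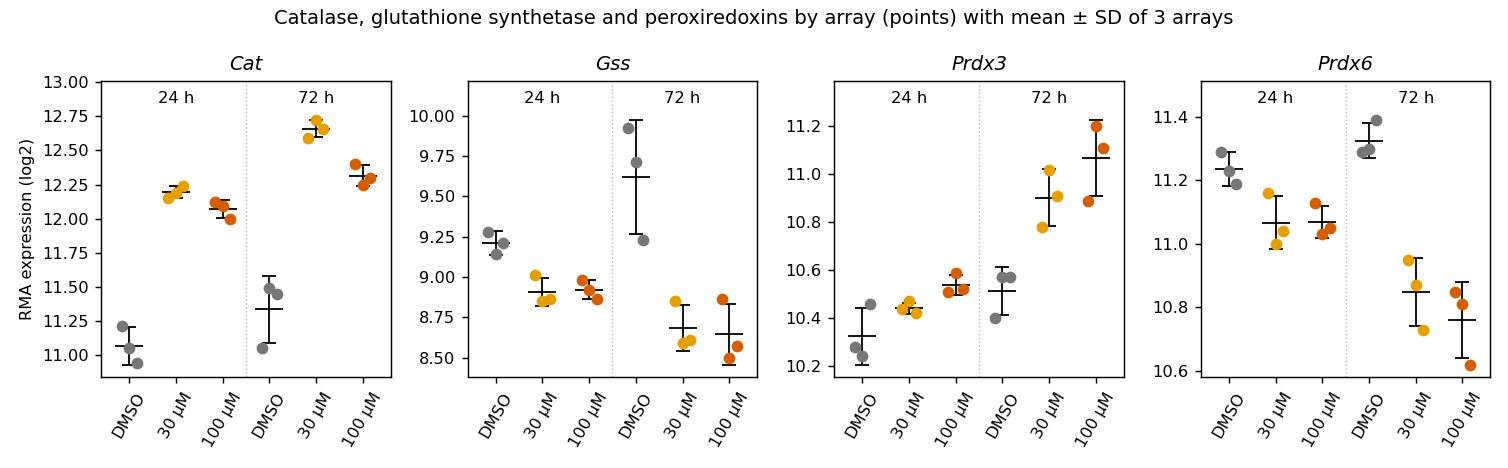
RMA expression (log2, y axis) of Cat, Gss, Prdx3 and Prdx6 by dose and time, with points for arrays and bars for the mean ± SD of 3 arrays; each panel has its own y axis, which does not start at 0. Cat with EMD lay between 12.00 and 12.72 and with DMSO between 10.94 and 11.49, while the other 3 genes parted from DMSO at 72 h, Prdx3 upward and Gss and Prdx6 downward.

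Pgd, phosphogluconate dehydrogenase, supplies NADPH to glutathione reductase and thioredoxin reductase. It was called higher at 100 µM only, at 10.21, 10.18 and 10.16 against 9.87, 9.47 and 9.65 with DMSO at 24 h (rise 0.52 ± 0.14, adjusted p = 0.0409) and at 10.48, 10.17 and 10.26 against 10.14, 9.79 and 9.64 at 72 h (rise 0.45 ± 0.14, adjusted p = 0.0402). The call at 24 h was lost without any array but DMSO replicate 1 (adjusted p = 0.176 and 0.0975 without DMSO replicates 2 and 3, and 0.106, 0.112 and 0.0993 without 100 µM replicates 1, 2 and 3). The call at 72 h was lost without DMSO replicate 2 or 3 or 100 µM replicate 1 or 3 (adjusted p = 0.119, 0.164, 0.13 and 0.0833). Taldo1, transaldolase of the same pentose phosphate pathway, changed by between -0.15 and -0.09 and was not called.

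Between the doses themselves, 6 genes were called lower at 100 than at 30 µM at 72 h, or 17.1% of the list, against 3.1% of all probe sets (1.85% lower, 1.25% higher) and 7.09% of the bright ones, and 0 were called higher. All 6 were transferases. The differences were -0.57 ± 0.09 for Gstm1 (adjusted p = 0.00361), -0.95 ± 0.19 for Gstm2 (adjusted p = 0.0134) and -1.33 ± 0.29 for Gstm3 (adjusted p = 0.0211), which had fallen against DMSO at both doses. Mgst2 differed by -0.50 ± 0.13 (adjusted p = 0.0428). Gstt1, at -0.67 ± 0.11 (adjusted p = 0.0047), stood above DMSO at 30 µM and less far above it at 100 µM. Mgst1, at -0.32 ± 0.08 (adjusted p = 0.0451), stood above DMSO at 30 µM. At 100 µM the arrays of Mgst1 overlapped those of DMSO (change 0.09, adjusted p = 0.549). The number of genes called fell to 2 without 30 µM replicate 2 or 3 or without 100 µM replicate 2, to 4 without 30 µM replicate 1 or 100 µM replicate 3 and rose to 9 without 100 µM replicate 1, and Gstt1 and Gstm1 passed in each of these.

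At 24 h 0 genes were called between the doses by limma, with 0% of all probe sets called and 0% of the bright ones; 6 of the 35 had an unadjusted p under 0.05.

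In the vehicle cultures, 12 genes changed between 24 and 72 h (7 higher, 5 lower), or 34.3%, where 21.7% of all probe sets (11% higher, 10.7% lower) and 33% of the bright ones did. The list thus changed with time about as often as other bright probe sets. Its median change was 0.19, against -0.05 over all probe sets. The bright probe sets also rose more often than they fell (19.7% called higher, 13.3% lower), and their median change was not computed. The largest fall was that of Gstk1, a transferase of mitochondria and peroxisomes, from 12.11, 12.07 and 12.35 to 9.68, 10.04 and 10.26 (change -2.19 ± 0.26, 4.55-fold, adjusted p = 2.3e-05).

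Of the 7 NRF2 target genes 4 were called lower with time in DMSO and 0 higher, where 10.7% of all and 13.3% of the bright probe sets were called lower. Beside Hmox1 the genes called lower were Srxn1 (-1.47, adjusted p = 0.00147), Gclc (-1.17, adjusted p = 0.000666) and Gclm (-0.82, adjusted p = 0.0143). The further probe sets of Srxn1 gave -0.13 and 0.01 for this change, neither of them called. The call of Gclm was lost without DMSO replicate 3 of 24 h or replicate 1 or 2 of 72 h (adjusted p = 0.0773, 0.0568 and 0.0606).

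Among the genes that rose with time, Gsr went from 7.62, 7.55 and 7.57 to 8.50, 8.69 and 8.73 (change 1.06 ± 0.13, adjusted p = 4.61e-05). Gstt2 rose by 0.88 (adjusted p = 0.0011), although its dimmer probe set gave -0.23. Gstt1 rose by 0.51 (adjusted p = 0.00316), Gstm1 by 0.44 (adjusted p = 0.00258) and Gpx4 by 0.42 (adjusted p = 0.00181), where a dimmer probe set of Gpx4 gave 0.05. Gss, by 0.41 (adjusted p = 0.0461), and Sod1, by 0.23 (adjusted p = 0.0189), complete the list. The call of Gss was lost without any array but DMSO replicate 3 of 72 h (adjusted p = 0.0652, 0.122 and 0.0947 without the 24 h replicates 1, 2 and 3, and 0.209 and 0.136 without the 72 h replicates 1 and 2). The call of Sod1 was lost without replicate 3 of 24 h or replicate 2 of 72 h (adjusted p = 0.0555 and 0.0665).

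Other values moved with time as well. The summed macrophage level in DMSO was lower at 72 h (10.49 to 11.25 against 11.23 to 11.68), with 4 of 9 markers called lower, where 10.7% of all probe sets were. The summed cholangiocyte level was higher (9.34 to 10.09 against 7.99 to 8.45), through Epcam, while Krt19, Krt7 and Cftr were under the median of all values. For beta-actin the control probe set at the 3′ end exceeded that at the 5′ end, a measure of RNA integrity and labelling, by 1.31 ± 0.04 (SD, n = 3) with DMSO at 24 h and by 0.698 ± 0.054 at 72 h, where the EMD groups stood at 0.847 and 0.848. The same difference for GAPDH was 0.289 and 0.168 with DMSO at 24 and 72 h. For hexokinase it went the other way with time, at 1.4 and 1.57. The EMD groups of 72 h stood at 0.171 and 0.141 for GAPDH and at 1.5 and 1.67 for hexokinase (30 and 100 µM). The part of these values in the changes was not tested.

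The effect of EMD at 72 h was compared with that at 24 h by an interaction term. Hmox1 was the 1 gene called at either dose, or 2.86% of the list, where 0.941% of all and 1.57% of the bright probe sets were called at 30 µM and 0.693% and 1.47% at 100 µM. Its effect was larger at 72 h by 2.33 ± 0.42 at 30 µM (adjusted p = 0.0142) and by 2.17 ± 0.42 at 100 µM (adjusted p = 0.0259). The term includes the fall of the DMSO level with time. The first call was lost without DMSO replicate 2 of 72 h (adjusted p = 0.0501). The second was lost without DMSO replicate 3 of 24 h (adjusted p = 0.0733), DMSO replicate 2 of 72 h (0.0879), 100 µM replicate 2 or 3 of 24 h (0.0615 and 0.0853) or 100 µM replicate 2 or 3 of 72 h (0.0716 and 0.0589), and also under robust moderation along a trend of intensity (adjusted p = 0.0606) and with only the arrays compared in the fit (adjusted p = 0.0623). Other genes passed when single arrays were left out. Without DMSO replicate 3 of 72 h these were Gss at 30 µM (-0.82, adjusted p = 0.0155) and at 100 µM (-0.88, adjusted p = 0.0153), without 30 µM replicate 2 of 24 h Gstt1 (0.73, adjusted p = 0.0292), and without 100 µM replicate 1 of 72 h Gclc, Gclm and Gss (adjusted p = 0.0339, 0.0148 and 0.0453).

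Some genes of the list differed widely between arrays of a group. The pooled SD within groups was 1.85 for Gpx2, 1.18 for Gsta3, 1.13 for Gstp1, 1.06 for Gpx3 and 0.696 for Nqo1, where its median was 0.187 over the 35 genes and 0.151 over the bright probe sets. It was smallest for Sod1, at 0.0449. In all 5 genes replicate 1 lay at the same end in all 6 groups.

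Gpx2, the peroxidase best known from the gut lining, read 5.10, 9.15 and 8.73 with DMSO at 24 h and 4.87, 9.34 and 8.56 with 100 µM. Replicate 1 was the lowest array and replicate 2 the highest in 6 of 6 groups. The gap narrowed with DMSO at 72 h, at 8.67, 10.05 and 8.79. Gsta3 was lowest in replicate 1 and highest in replicate 3 in 6 of 6 groups, for instance at 4.63, 5.37 and 7.54 with DMSO at 24 h. Gstp1, which is low in the normal adult rat hepatocyte, was highest in replicate 1 in 6 of 6 groups and read 11.64, 9.44 and 8.98 with DMSO at 72 h. Gpx3 was also highest in replicate 1 in 6 of 6 groups, at 10.24, 8.83 and 7.30 with DMSO at 24 h. Nqo1 was lowest in replicate 1 in 6 of 6 groups. Of these 5 genes Gpx2, Gsta3 and Gstp1 hold the motif printed above, and Gpx3 and Nqo1 do not hold it in the window searched. That window starts 250 bases before the gene and misses any motif further away. It held the motif in 27.6% of the listed genes and 13.1% of all genes searched, and a link of motif and spread was not tested. Labels do not say what the arrays of 1 number share.

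**Figure D5:**
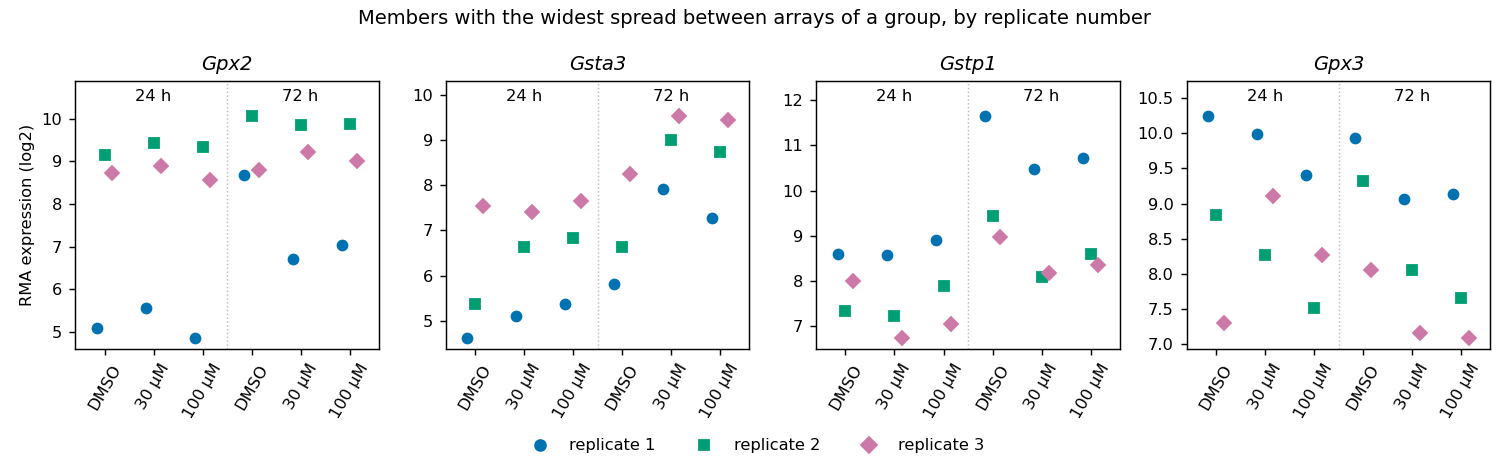
RMA expression (log2, y axis) of Gpx2, Gsta3, Gstp1 and Gpx3 by dose and time, with a point for each array marked by replicate number; each panel has its own y axis, which does not start at 0. Replicate 1 was lowest in all 6 groups for Gpx2 and Gsta3 and highest in all 6 for Gstp1 and Gpx3.

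Other genes of the same pathways were read from a list of 72 symbols, of which 62 were measured. In the order 30 µM and 100 µM at 24 h and 30 µM and 100 µM at 72 h, the numbers called were 9 higher and 4 lower, 10 and 4, 14 and 15, and 13 and 16, or 21%, 22.6%, 46.8% and 46.8% of the 62, where 5.36%, 6.01%, 17.1% and 17.1% of all probe sets and 12.4%, 14.3%, 33.2% and 33% of the bright ones were called. Their median changes were -0.05, -0.05, -0.09 and 0.06, again near 0. Values in this and the next paragraph come from at most the 4 called genes with the largest change in each comparison. A dose or time not given for a gene is therefore not a finding of no change there. The gene with the largest rise at 24 h was Txnip, the thioredoxin-interacting protein, which binds and inhibits thioredoxin, at 3.49 ± 0.16 with 30 µM (adjusted p = 1.7e-10) and 3.57 ± 0.16 with 100 µM (adjusted p = 1.37e-10). At 72 h Txnip rose by 1.67 and 2.32 (adjusted p = 1.39e-06 and 4.04e-08). Aldh1a1, a retinal dehydrogenase, rose by 2.52 and 2.34 at 24 h (adjusted p = 1.1e-07 and 2.85e-07), and Glrx, glutaredoxin, which reduces glutathione-protein disulfides, by 1.88 and 1.82 (adjusted p = 1.36e-06 and 2.05e-06).

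Me1, malic enzyme, another source of NADPH, rose by 1.90 at 100 µM and 24 h (adjusted p = 1.63e-05) and by 2.62 and 2.88 at 72 h (adjusted p = 1.92e-07 and 8.33e-08). Abcc2, the canalicular exporter of glutathione conjugates, fell at 30 µM by 1.64 at 24 h (log2 change -1.64, adjusted p = 0.00302) and by 2.29 at 72 h (-2.29, adjusted p = 4.83e-05). It was higher by 1.23 at 100 than at 30 µM at 72 h (adjusted p = 0.0391). Selenop, the secreted selenoprotein P that carries selenium from the liver, fell by 2.30 at 100 µM and 72 h (log2 change -2.30, adjusted p = 5.69e-06). Cbr3, a carbonyl reductase, was dim (mean 4.81) and rose by 3.14 and 1.83 at 72 h (adjusted p = 0.000145 and 0.0117). Gstm7, a further mu-class gene, was 1.88 lower at 100 than at 30 µM at 72 h (change -1.88 ± 0.31, adjusted p = 0.0049). In the same comparison Abcc4 was higher by 1.25 (adjusted p = 0.0325) and Oplah lower (-1.07, adjusted p = 0.0459). With time in DMSO 19 of the 62 were called higher and 5 lower, against 11% and 10.7% of all probe sets. The largest of these changes were rises of Aldh1a1 (2.49), Txnip (1.65), Nfe2l1 (1.44) and Abcc3 (1.33). The interaction was called for Txnrd2 (0.77 at 30 and 1.14 at 100 µM) and Txnip (-1.82 and -1.25). Cbr3 (3.03) was called at 30 µM and Mafk (-0.74) at 100 µM.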

How the data were processed

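RNA of 18 rat hepatocyte cultures was hybridised to Affymetrix rat expression arrays. The authors condensed the scans to log2 expression values with RMA (background correction, quantile normalization and median polish) and deposited 1 value per probe set and array; no version of the software is stated. Probe sets were named through the platform annotation, of which 20826 had 1 symbol, 436 several and 9780 none; 57 control probe sets were left out, and 35 of 35 gene IDs were matched to the GRCr8 gene table. Values were used as deposited. The number of arrays limits the precision.

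The 6 groups were fitted together with limma 3.58.1 in R 4.3.3 (lmFit and eBayes), with Benjamini-Hochberg adjustment over 31042 probe sets and a threshold of 0.05, for 4 comparisons of EMD with DMSO, 2 of dose, 1 of time and 2 interactions. All listed genes are named, and of the other pathway genes up to 4 called per comparison with the largest change. The genes and lists were chosen with earlier results of these data known. The share of called probe sets at least as bright as the dimmest member was added after seeing the data. The fit was tested on simulated data. Alternatives were another normalization, a filter on dim probe sets, a replicate block, separate fits, moderated trends, array weights, averaged probe sets and leaving out each array.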

Additional observations from a re-analysis of the deposited data

Results flagged for a closer look

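The effect of EMD on Hmox1 differed between 72 h and 24 h by the interaction term, by 2.33 ± 0.42 on the log2 scale at 30 µM (adjusted p = 0.0142) and by 2.17 ± 0.42 at 100 µM (adjusted p = 0.0259), from no called change at 24 h to a rise at 72 h over a vehicle level that had itself fallen. Both terms share the DMSO arrays. The summed macrophage level was lower with EMD at both times, mainly through Lyz2, and the part of other cell types was not tested.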

How the results depend on the processing

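No gene changed direction while called. Calls that held under each of the alternatives run numbered 3 of 6 at 30 µM and 6 of 7 at 100 µM at 24 h, 10 of 15 and 10 of 13 at 72 h, 1 of 6 between doses at 72 h, 7 of 12 over time in DMSO and 0 of 1 for either interaction. The replicate block gave 13 calls in place of 6 at 30 µM and 24 h, 1 in place of 0 between doses at 24 h, and 4 and 3 in place of 1 for the interactions at 30 and 100 µM. With only the arrays compared in the fit, 1 in place of 6 was called between doses at 72 h and 0 in place of 1 for the interaction at 100 µM, which the intensity trend with robust moderation also put at 0. The fit of only the arrays compared also ended the calls of Mgst1 at 30 µM and 24 h and of Gclm, Gss and Sod1 over time. At 72 h it ended those of Gstt2, Keap1, Nfe2l2 and Slc7a11 at 30 µM and of Gclm, Pgd and Slc7a11 at 100 µM. Array weights gave 10 between doses at 72 h and 3 and 5 for the interactions. Leaving out 1 array gave 4 to 6 calls at 30 µM and 6 to 7 at 100 µM at 24 h, 10 to 14 and 11 to 13 at 72 h, 0 to 0 and 2 to 9 between doses at 24 and 72 h, 9 to 14 over time, and 0 to 2 and 0 to 4 for the interactions at 30 and 100 µM. Replicate numbers were not taken to pair arrays, because the labels tie no number to an animal. Arrays of 1 number were nonetheless alike. Deviations from the group means correlated above 0.1 in 16 of 18 same-number pairs (0.01 to 0.63, median 0.37). For 36 pairs of different numbers 7 did, and the median was -0.22. A fit without the replicate block keeps this shared spread in its error, so a gene not called there is not shown to be unchanged. With that block, genes called in no comparison with DMSO passed at 72 h: Gsta3 at 30 and 100 µM (adjusted p = 1.34e-05 and 9.69e-05), Gsta4, Gstp1 and Nqo1 at 30 µM (0.00305, 0.0122 and 0.00807) and Gpx3 at 100 µM (0.0318); at 30 µM and 24 h Nqo1 (0.0358), Txnrd1 (0.0436) and Gpx1 (0.0487) passed. Over all probe sets the block took calls from 292 to 924 and from 215 to 534 for the interactions and from 963 to 1625 between doses at 72 h, and array weights took the last to 3336.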
